A study of Mus musculus with 4 samples.

Results

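The genes described here are 5 transcription factor genes of the alpha and delta cells of the pancreatic islet: Irx1, Irx2, Pou3f4, Hhex and Etv1. They were taken by gene symbol from a table of 54532 genes, and all 5 had a row. Pancreatic islets of male C57BL/6 mice, 10 to 12 weeks old, gave 4 libraries of total RNA, 2 of wild type and 2 of mice with a miR-29a/b-1 transgene that overexpresses the microRNA pair specifically in pancreatic beta cells. The libraries carry the numbers 1 and 2 in each genotype, written here as WT1 and WT2 for wild type and TG1 and TG2 for transgenic. The labels say neither what a number stands for, nor which promoter drives the transgene, nor whether a library is 1 mouse or a pool, so a p-value reflects no more than how these 4 libraries vary, part of which may be technical.

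Islets hold several hormone cells: beta cells make insulin, alpha cells glucagon, delta cells somatostatin and PP cells pancreatic polypeptide. Each type is set and kept by DNA-binding proteins of the homeodomain and other families. Irx1 and Irx2 belong to the Iroquois homeodomain family and are known from alpha cells. Pou3f4, also called Brn4, is a POU-homeodomain factor that binds the glucagon gene promoter. Hhex is a homeodomain protein that delta cells need to form, and it is also known from endothelium, liver and blood lineages. Etv1 is an ETS-domain factor of the PEA3 group, together with Etv4 and Etv5. The transgene is in beta cells while the RNA is of whole islets, so a change in a gene of alpha or delta cells is measured across a cell border. In such bulk RNA, fewer cells of a type and less RNA per cell cannot be told apart.

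MicroRNAs recognise messenger RNAs mainly through the seed, bases 2 to 8 from the 5′ end. Both mature microRNAs of the transgene are shown because they share that seed, in capitals, and direct targets usually carry its complement. The sequences are from RefSeq (GRCm38.p6).
miR-29a-3p: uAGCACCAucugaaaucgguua
miR-29b-3p: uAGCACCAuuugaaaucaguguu
The 7 bases that pair with the seed, TGGTGCT, were searched on the transcript strand of the longest annotated 3′ UTR of each gene (GENCODE M21). They occurred 0 times in the 3′ UTRs of Irx1 (695 bases), Irx2 (958 bases), Pou3f4 (1657 bases), Hhex (926 bases) and Etv1 (4715 bases). Among 20620 protein-coding genes with a 3′ UTR of at least 50 bases, 13.3% held the match. Among genes whose 3′ UTR was about as long as that of Etv1, 39.7% held it. The share at like length was 7.51% for Irx1, 9.65% for Irx2, 14.4% for Pou3f4 and 9.13% for Hhex. The absence of these letters says nothing about shorter or imperfect pairing.

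Levels are FPKM (fragments per kilobase of gene, scaled by the size of the library), and reads were recovered from them as whole numbers. Reads in genes came to between 21670854 and 27080907 per library. The libraries numbered 1 stood apart from those numbered 2. The summed level of 10 acinar genes, markers of the exocrine cells around islets, was 4462 and 5990 FPKM in WT1 and TG1 against 953 and 1654 FPKM in WT2 and TG2, and Ins2, the main insulin gene, took 20.1% and 12.8% of reads against 26.6% and 25.5%. Transgenic over wild type is therefore given within each number as well as over all libraries.

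**Figure D1:**
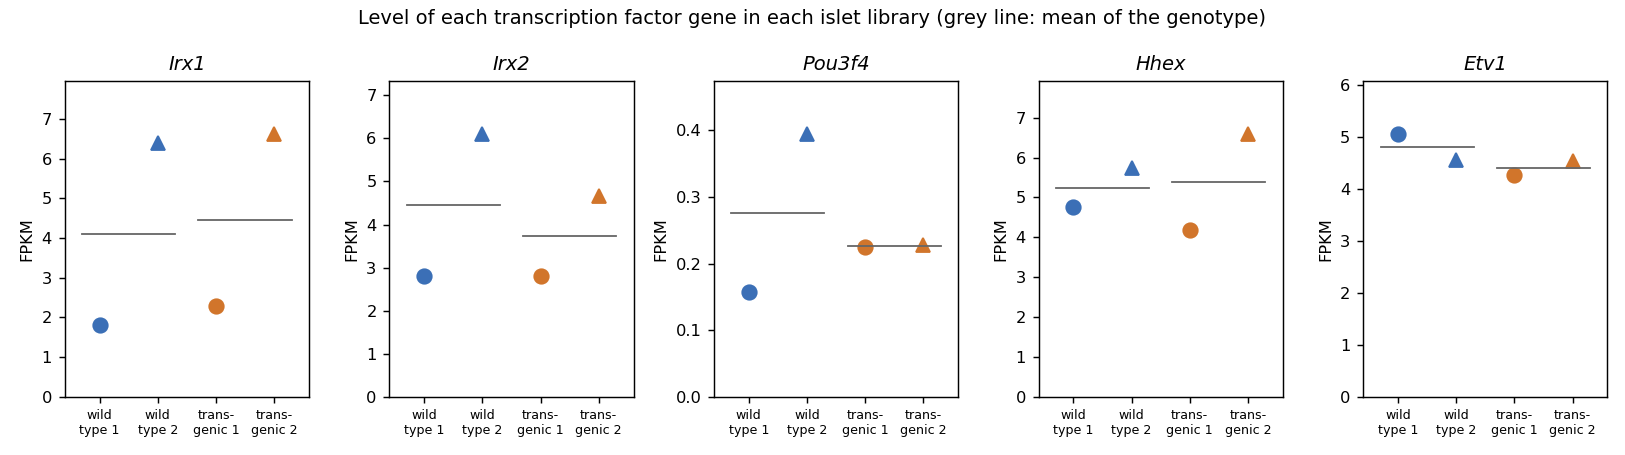
FPKM (vertical axis, each panel on its own scale from 0) of the 5 genes in the 4 libraries; blue is wild type, orange transgenic, circles number 1, triangles number 2 and the grey line the mean of the genotype. Irx1 and Irx2 are higher in both libraries numbered 2, and Etv1 lies within 4.28 to 5.06 FPKM.

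Of these genes, 4 were expressed at a few FPKM and 1 was near the limit of detection. The mean over the libraries was 5.32 ± 1.07 FPKM for Hhex, 4.61 ± 0.33 for Etv1, 4.28 ± 2.58 for Irx1, 4.10 ± 1.60 for Irx2 and 0.251 ± 0.101 for Pou3f4 (SD, n = 4). The differences between neighbours among Hhex, Etv1, Irx1 and Irx2 were smaller than their spread, and Pou3f4 lay below the range of the others. The order also depended on the library number. Etv1 was the highest of the 5 in WT1 and TG1, and Irx1 was the highest in WT2 and TG2. FPKM divides by the length in the deposited table, which for Etv1 is 13296 bases, while the longest coding transcript in GENCODE M21 has 6576 bases. At that transcript length the mean level of Etv1 would be 9.32 FPKM, above the 5.66 FPKM of Hhex computed the same way.

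The genotypes were compared to see whether extra miR-29a and miR-29b-1 in beta cells goes with a change in these factors. None of the 4 genes high enough to be tested passed the threshold. The test was limma on log2(FPKM + 1), applied to 12716 genes with at least 1 FPKM in at least 2 libraries. It called 0 of these 4 genes and 0% of all genes compared at an adjusted p under 0.05. At an unadjusted p under 0.05 there were 83 of all genes and 0 of these 4. Voom on the recovered reads also called 0 genes, with 32 at an unadjusted p under 0.05. With library number as a further term, voom called 1.87% of all genes and 0 of these 4. Fold changes on the log2(FPKM + 1) scale understate the change of low genes. The fit by genotype alone counts the difference between library numbers as spread between replicates, so its intervals are wide and changes within them could go uncalled. The smallest 2-sided p that an exact permutation test of 2 against 2 libraries allows is 0.333.

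Irx1 (chromosome 13, 71957921 to 71963723, GRCm38, minus strand) lay at 1.81 FPKM in WT1, 6.39 in WT2, 2.29 in TG1 and 6.63 in TG2, from 113, 434, 155 and 365 reads. Each transgenic library was above the wild-type library of its number, but the genotypes overlapped because the numbers differed by far more. The log2 fold change of transgenic over wild type was 0.14 ± 0.63 (standard error, limma adjusted p = 1.00, n = 2 per group), with a 95% interval of -1.55 to 1.83. Within number 1 the ratio of FPKM was 1.27 (95% exact counting interval 0.990 to 1.63), and within number 2 it was 1.04 (0.900 to 1.20).

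Irx2 (chromosome 13, 72628820 to 72634198, plus strand) lies 665096 bases from Irx1 in the same Iroquois cluster. It was at 2.81 FPKM in WT1, 6.11 in WT2, 2.80 in TG1 and 4.67 in TG2, from 220, 520, 237 and 322 reads. The libraries numbered 1 were nearly equal, and TG2 was lower than WT2. The ratio of transgenic to wild type was 0.997 (0.827 to 1.20) within number 1 and 0.764 (0.663 to 0.880) within number 2. These intervals cover counting error only, with 1 library on each side. Over all libraries the log2 fold change was -0.16 ± 0.38 (limma adjusted p = 1.00, n = 2 per group), with a 95% interval of -1.17 to 0.85.

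Pou3f4 (chromosome X, 110814280 to 110817207) was below the level compared. It had 11 reads in WT1, 30 in WT2, 17 in TG1 and 14 in TG2, or 0.157, 0.395, 0.225 and 0.228 FPKM. Both transgenic values lay between the wild-type ones. The ratio of transgenic to wild type was 1.43 in number 1 and 0.576 in number 2, with counting intervals of 0.632 to 3.38 and 0.282 to 1.12, so no difference was detectable at this depth.

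Hhex (chromosome 19, 37434810 to 37440731) was at 4.76 FPKM in WT1, 5.73 in WT2, 4.19 in TG1 and 6.60 in TG2, from 218, 285, 207 and 266 reads. The transgenic libraries held both the lowest and the highest value. The ratio was 0.879 (0.723 to 1.07) in number 1 and 1.15 (0.971 to 1.37) in number 2, opposite directions that both include no change, and 38.9% of the genes compared had opposite directions in the numbers. The log2 fold change over all libraries was 0.01 ± 0.23 (limma adjusted p = 1.00, n = 2 per group), with a 95% interval of -0.61 to 0.63.

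Etv1 (chromosome 12, 38779380 to 38870484) was at 5.06 FPKM in WT1, 4.56 in WT2, 4.28 in TG1 and 4.54 in TG2, from 1607, 1572, 1466 and 1267 reads. The genotypes did not overlap, though TG2 was only just under WT2, and 21.3% of the genes compared did not overlap between genotypes. The ratio was 0.845 (0.786 to 0.907) in number 1 and 0.995 (0.923 to 1.07) in number 2. The log2 fold change was -0.10 ± 0.13 (limma adjusted p = 1.00, n = 2 per group), with a 95% interval of -0.44 to 0.23. Etv1 therefore had the narrowest interval of the 4 genes tested.

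**Figure D2:**
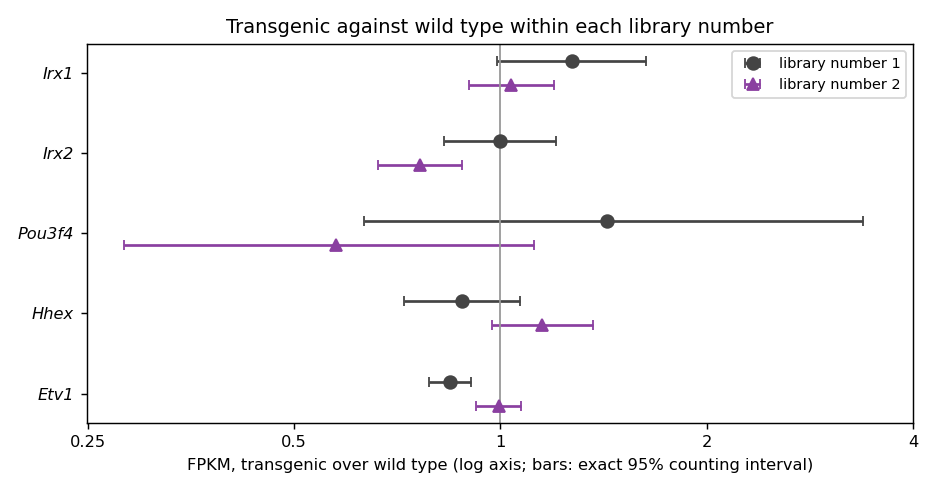
Ratio of FPKM, transgenic over wild type, on a log axis for each gene within library number 1 (circles) and number 2 (triangles), with exact 95% counting intervals. The ratio of Irx2 is 0.997 in number 1 and 0.764 in number 2, and the intervals of Pou3f4 are the widest.

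No other gene of these cell types passed the genotype test. Limma by genotype alone called 0 of the 10 other alpha cell genes and 0 of the 4 compared of 6 other delta cell genes. Because it called 0% of all genes, that fit does not set these lists apart. Voom with library number as a further term also called 0 of the 10 and 0 of the 4, against 1.87% of all genes. The median log2 fold change was -0.07 in the alpha list and 0.10 in the delta list, against 0.01 over all genes compared. Gcg, the glucagon gene, was at 12617 and 12206 FPKM in WT1 and WT2 and at 11842 and 11521 in TG1 and TG2. Sst, the somatostatin gene, was at 2653 and 4290 against 2813 and 4713 FPKM. Of the factors that alpha cells share with other islet cells, Pax6, which all hormone cells use, ranged from 25.4 to 27.6 FPKM and Isl1, a LIM-homeodomain factor of all of them, from 36.0 to 42.3 FPKM.

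The larger differences lay between the library numbers. Irx1 and Irx2 rose in number 2, with higher values in both genotypes and the larger ratio for Irx1. Limma with genotype and number as terms, which leaves 1 residual degree of freedom, called 2 of the 4 genes higher in number 2 and 0 lower. Of all genes compared it called 13.4% higher and 14.1% lower, 27.5% in either direction. Of the calls over all genes 48.6% were higher in number 2, and 60.7% when libraries were scaled by the reads without Ins2, Ins1 and Iapp.

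Irx1 was 3.54-fold higher in WT2 than in WT1 (2.87 to 4.39) and 2.89-fold higher in TG2 than in TG1 (2.39 to 3.51). Its log2 difference, number 2 minus number 1, was 1.30 ± 0.09 (limma adjusted p = 0.00321, n = 2 per number). Only 48 of the genes compared, Irx1 included, had a difference as high, which is 0.377% of them. Irx2 was 2.18-fold higher in WT2 (1.86 to 2.56) and 1.67-fold higher in TG2 (1.41 to 1.98), with a log2 difference of 0.74 ± 0.11 (limma adjusted p = 0.0144, n = 2 per number). Irx1 thus gained on Irx2. There were 0.643 FPKM of Irx1 per FPKM of Irx2 in WT1 and 0.819 in TG1, against 1.05 in WT2 and 1.42 in TG2.

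Hhex was 1.20-fold higher in WT2 (1.01 to 1.44) and 1.58-fold higher in TG2 (1.31 to 1.90). Its libraries of the 2 numbers did not overlap, and 34.4% of all genes compared were likewise higher in both libraries numbered 2. The log2 difference of 0.39 ± 0.11 just missed the threshold (limma adjusted p = 0.0547, n = 2 per number). It also missed with a pseudocount of 0.1 FPKM (limma adjusted p = 0.0577). It passed in voom with the same terms (adjusted p = 0.00993), a fit that also leaves 1 residual degree of freedom. Voom called 2746 of 12716 genes higher in number 2 and 2799 lower. Hhex passed too under the scaling without the 3 insulin and amylin genes (limma adjusted p = 0.0435). That scaling, chosen after seeing the data, called 2253 of 12727 genes higher and 1461 lower. Etv1 did not pass the test, at 0.901-fold in WT2 (0.840 to 0.966) and 1.06-fold in TG2 (0.983 to 1.14), with a log2 difference of -0.03 ± 0.09 (limma adjusted p = 0.830, n = 2 per number) and a 95% interval of -0.26 to 0.20. Pou3f4 was 2.51-fold higher in WT2 (1.22 to 5.55) and 1.01-fold in TG2 (0.461 to 2.18).

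**Figure D3:**
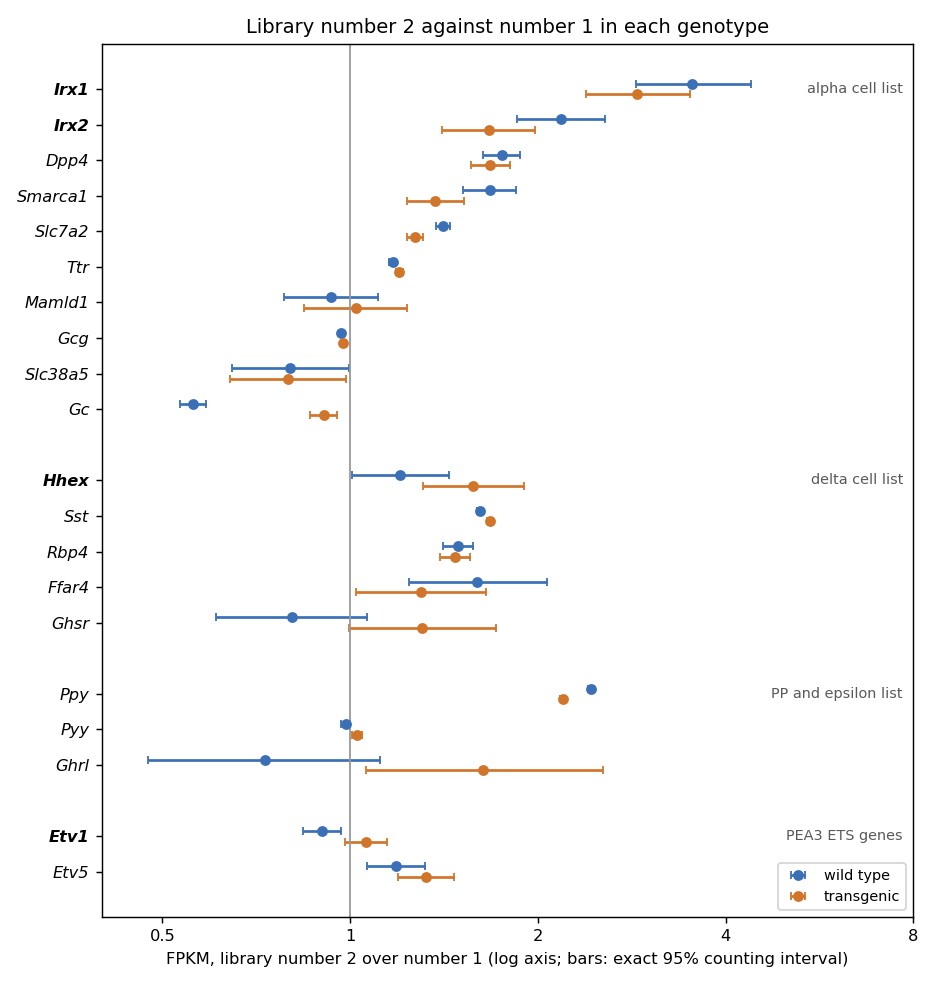
Ratio of FPKM, library number 2 over number 1, on a log axis for alpha, delta, PP and epsilon cell genes and PEA3 genes, in wild type (blue) and transgenic islets (orange), with exact 95% counting intervals; the 4 tested factor genes are in bold. Irx1, Irx2 and Dpp4 lie to the right of 1 in both genotypes, while Gcg lies at 0.967 and 0.973.

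Some other alpha cell genes also rose in number 2, while the glucagon gene and others did not pass the test. Of the 10 other alpha cell genes, 5 rose in number 2 and 0 fell in the same limma fit, with a median log2 difference of 0.33 against 0.01 over all genes compared. Dpp4, a surface peptidase gene, was at 8.49 and 7.72 FPKM in number 1 against 14.9 and 13.0 in number 2 (log2 difference 0.71 ± 0.08, limma adjusted p = 0.00811, n = 2 per number). The amino acid transporter gene Slc7a2 (0.41 ± 0.08, limma adjusted p = 0.0282) and the chromatin remodeller gene Smarca1 (0.51 ± 0.09, limma adjusted p = 0.0239, n = 2 per number) also rose. By value alone, 6 of the 10 were higher and 3 lower in number 2 in both genotypes. Of all 12716 genes compared, 5110 were higher and 4939 lower in this way. The 3 lower ones of the alpha list were Gcg, Gc and Slc38a5. Gc, the vitamin D-binding protein gene, was at 106 and 80.5 FPKM in number 1 against 59.4 and 73.0 in number 2 (-0.48 ± 0.18, limma adjusted p = 0.103, n = 2 per number), and Slc38a5, an amino acid transporter gene, at 3.48 and 3.84 against 2.79 and 3.06 (-0.25 ± 0.08, adjusted p = 0.0796). Gcg had a log2 difference of -0.04 ± 0.10 (limma adjusted p = 0.755, n = 2 per number). The rise was not particular to alpha cell genes. Of 11 beta cell genes, with 10 compared, 4 rose in number 2 and 0 fell, with a median log2 difference of 0.21. By value, 8 of these 10 were higher and 1 lower in number 2 in both genotypes.

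Set against the glucagon gene, Irx1 and Irx2 separated the library numbers and overlapped between genotypes. Irx1 had 0.143 FPKM per 1000 FPKM of Gcg in WT1 (95% exact counting interval 0.118 to 0.172), 0.523 in WT2 (0.475 to 0.575), 0.194 in TG1 (0.164 to 0.227) and 0.576 in TG2 (0.518 to 0.638). Irx2 had 0.223, 0.501, 0.237 and 0.405 FPKM per 1000 FPKM of Gcg in the same order. For both genes the libraries numbered 2 were above those numbered 1, with no overlap of the counting intervals. Pou3f4 had 0.0125, 0.0324, 0.0190 and 0.0198 FPKM per 1000 FPKM of Gcg, and its intervals overlapped among the libraries. Etv1 kept between 0.361 and 0.401 FPKM per 1000 FPKM of Gcg.

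Among delta cell genes the hormone gene rose in number 2, and Hhex was higher there without passing the test. Sst rose in number 2 (0.72 ± 0.09, limma adjusted p = 0.0112, n = 2 per number), as did Rbp4, a retinol carrier gene strong in delta cells, from 69.0 and 68.8 to 103 and 101 FPKM (0.56 ± 0.08, adjusted p = 0.0136), and Ffar4, a fatty acid receptor gene. These are 3 of the 4 delta cell genes compared, with 0 lower. Hhex had 1.79 FPKM per 1000 FPKM of Sst in WT1, 1.34 in WT2, 1.49 in TG1 and 1.40 in TG2. By 95% exact counting intervals WT1 lay apart from WT2 in this ratio, and all other pairs of libraries overlapped. Etv1 was at 1.91 and 1.52 FPKM per 1000 FPKM of Sst in number 1 and at 1.06 and 0.962 in number 2.

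**Figure D4:**
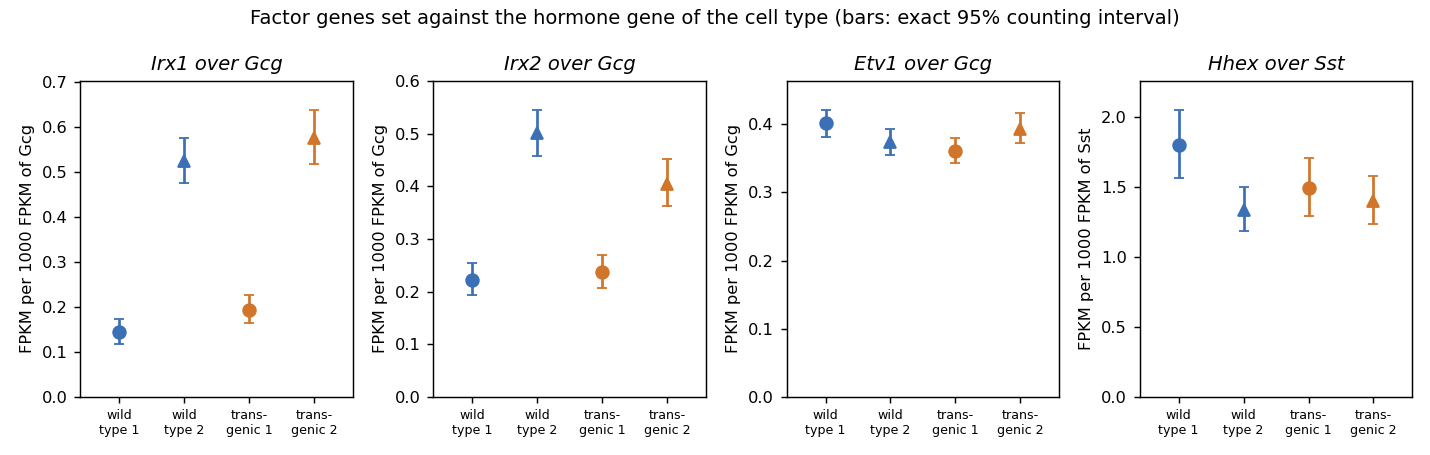
FPKM of Irx1, Irx2 and Etv1 per 1000 FPKM of Gcg and of Hhex per 1000 FPKM of Sst in each library (vertical axes from 0), with exact 95% counting intervals; blue is wild type, orange transgenic, circles number 1, triangles number 2. Irx1 and Irx2 separate the numbers, at 0.143 to 0.194 against 0.523 to 0.576 for Irx1.

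Markers of some other cells moved with the number, and acinar genes were also higher in the transgenic libraries. All 9 compared of the 10 acinar genes fell in number 2, with a median log2 difference of -2.06, and none of the 10 was at 0. The same 9 were higher in the transgenic than in the wild-type library of both numbers, with a median log2 difference of 0.62. Of all 12716 genes compared, 4265 were likewise higher in both numbers. Limma by genotype called 0 of the 9 acinar genes compared, and 0 of these 9 had an unadjusted p under 0.05. Voom with library number as a further term called all 9 higher in transgenic islets (adjusted p up to 0.00721). It left 1 residual degree of freedom and called 1.87% of all genes in either direction. With a curve on GC content also removed, it called 8 of the 9 higher. Because Hhex is also known from endothelium, the 8 endothelial genes were examined, of which 4 fell and 0 rose in number 2. Their summed level was 88.9 and 113 FPKM in number 1 against 71.2 and 84.2 in number 2, and none was at 0. By value, 5 of the 8 were lower and 1, Tek, was higher in number 2 in both genotypes. Of all genes compared, 4939 were lower and 5110 higher in this way. Tek was at 2.21 and 2.11 FPKM in number 1 and 2.81 and 2.97 in number 2 (0.30 ± 0.09, limma adjusted p = 0.0680, n = 2 per number). Of the 7 duct genes, with 4 compared, 2 fell, with summed levels of 85.4 and 77.8 against 65.0 and 77.6 FPKM and none at 0. Between numbers, 0 of the 4 stellate and pericyte genes compared and 0 of the 6 macrophage genes were called. Of the 5 neural genes compared, 2 rose in number 2 and 1 fell. Ppy, the pancreatic polypeptide gene, was at 3737 and 4000 FPKM in number 1 and 9089 and 8764 in number 2. The part of these cells in the differences of Irx1, Irx2 and Hhex between numbers, and in the genotype values of all 5 factor genes, was not tested.

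The families of these factors were represented in islets by few members. Of the other Iroquois genes, Irx3 was at 0.196 to 0.407 FPKM, and Irx4, Irx5 and Irx6 had 0 reads in every library, where a count of 0 allows up to 3 reads. Of the other class III POU genes, Pou3f1 and Pou3f2 had at most 0.0401 FPKM and Pou3f3 had 0 reads in every library. In the PEA3 group Etv4 had at most 0.0810 FPKM, while Etv5 was at 6.26 and 7.42 FPKM in WT1 and WT2 and 6.77 and 8.97 in TG1 and TG2. Etv5 was thus higher than Etv1 in each library on the deposited lengths. Etv5 was not computed at transcript length, where the mean of Etv1 would be 9.32 FPKM. It did not pass the test between genotypes (0.17 ± 0.18, limma adjusted p = 1.00) or between numbers (0.29 ± 0.08, limma adjusted p = 0.0598, n = 2 per group).

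The neighbourhood of Irx2 held a transcript with the same pattern. Gm20554, a long intergenic noncoding RNA on the minus strand (chromosome 13, 72626213 to 72628564), has its 5′ end 255 bases before the start of Irx2, head to head with it. It was named after its values were seen, as 1 of the 4 genes within 2000 bases of any of the factors. It was at 1.18 and 2.44 FPKM in WT1 and WT2 and at 1.30 and 2.02 in TG1 and TG2, from 66, 149, 79 and 100 reads. Like Irx2, Gm20554 rose in number 2 (log2 difference 0.53 ± 0.12, limma adjusted p = 0.0338, n = 2 per number), and there were 2.15 to 2.50 FPKM of Irx2 per FPKM of Gm20554 in the 4 libraries. The genes do not overlap in the deposited coordinates. No source used here says whether counting used strand, so reads near that start could belong to either.
The 250 bases before the start of Irx2 are shown because they fill nearly all of the space between the 2 genes (RefSeq, GRCm38.p6, chr13:72628570-72628819, plus strand, CG pairs in capitals).
Irx2 upstream: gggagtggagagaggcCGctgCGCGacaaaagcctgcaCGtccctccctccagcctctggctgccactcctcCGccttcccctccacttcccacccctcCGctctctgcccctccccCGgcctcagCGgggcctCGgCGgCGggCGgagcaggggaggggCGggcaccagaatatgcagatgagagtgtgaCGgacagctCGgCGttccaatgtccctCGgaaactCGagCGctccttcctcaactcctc
They hold 19 CG pairs, a number that 19.7% of 32851 promoter windows of the same length reach, against a median of 6. The motif CCAAT occurred 1 time in either orientation, and 33.9% of all windows hold it. TATAAA, searched on both strands, occurred 0 times, and 12.4% of all windows hold it.

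Hhex also has a head-to-head neighbour, Gm38345, whose 5, 12, 6 and 16 reads in WT1 and WT2 and TG1 and TG2 were too few to compare. The stretch between the RefSeq window's first base and the deposited start of Hhex is shown as the second such region (GRCm38.p6, chr19:37434591-37434809, plus strand, CG pairs in capitals), and it covers the 153 bases between the genes.
Hhex upstream: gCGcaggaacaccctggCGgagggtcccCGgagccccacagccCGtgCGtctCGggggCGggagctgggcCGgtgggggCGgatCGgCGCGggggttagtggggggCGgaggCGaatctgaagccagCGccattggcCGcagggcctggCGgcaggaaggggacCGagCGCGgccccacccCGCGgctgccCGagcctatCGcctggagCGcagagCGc
The full window of 250 bases holds 32 CG pairs, which 4.58% of all windows reach. CCAAT occurred 1 time in either orientation and TATAAA 0 times in that window.

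Among the 79 listed genes that were compared, those nearest to each factor were found by the Euclidean distance of centred log2(FPKM + 1) over the 4 libraries. Irx1 was nearest to Ppy (distance 0.15), followed by Slc2a2, the beta cell glucose transporter gene. Only 7 of all genes compared, Ppy included, lay as near to Irx1 as Ppy did. The added 1 FPKM shrinks the differences of Irx1 more than those of Ppy. There were 0.484 FPKM of Irx1 per 1000 FPKM of Ppy in WT1 and 0.574 in TG1, against 0.703 in WT2 and 0.757 in TG2. Irx2 was nearest to Prph, an intermediate filament gene of neurons (0.10), followed by Dpp4. Hhex was nearest to Neurod1 (0.04), a basic helix-loop-helix factor of hormone cells at 48.6, 55.2, 43.8 and 63.7 FPKM in WT1 and WT2 and TG1 and TG2, and 5 of all genes compared lay as near. Next to Hhex came Tek of the endothelial list (0.141) and Col3a1 of the stellate and pericyte list (0.145). Etv1 was nearest to Elavl4 (0.03), an RNA-binding protein gene of neurons, at 7.15, 6.68, 6.15 and 6.45 FPKM, and 14 of all genes compared lay as near. Mamld1 of the alpha list came next to Etv1 (0.05). With 4 libraries these are descriptions of shape.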

How the data were processed

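The authors deposited 1 table of FPKM per gene with gene lengths. HTSeq 0.6.0 and the build GRCm38 are named in the submitters' processing notes. The aligner and strand setting are not given in the sources used here. Per the labels' protocols, Trizol was used on frozen islets, and an Illumina TruSeq kit made each library from 1 ug of total RNA.

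FPKM times length was a whole multiple of 1 step per library, within 0.001, for 100% of the nonzero values, so the multiples were used as read counts. A single read in 1 kilobase equals 0.0386 to 0.0476 FPKM, and a count of 0 allows 3 reads, or 0.116 to 0.143 FPKM. Ratios between libraries have exact conditional binomial 95% intervals (scipy 1.17.1). Such intervals hold counting error alone, as without molecular identifiers PCR copies of 1 molecule count separately.

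Tests were limma 3.58.1 (R 4.3.3; eBayes with trend) on log2(FPKM + 1) over 12716 genes with at least 1 FPKM in at least 2 libraries, 2-sided, with Benjamini-Hochberg adjustment over all of them and a threshold of 0.05; genotype was the only term, or genotype and library number for the difference between numbers. Voom in limma used the totals that the deposited scale implies. With library number as a term, both limma and voom left 1 residual degree of freedom. The GC curve was a lowess (span 0.3) on the GC content of each gene's longest GENCODE M21 transcript, known for 12705 genes compared. RefSeq promoter windows matched 4 of the 5 genes; Irx1 was not matched.

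All 5 factor genes are named, with hormone and lineage factor genes, family relatives and up to 3 genes of each other list; the nearest listed genes follow a fixed distance rule. The values of some listed genes are not reported here. The genes and lists were chosen with earlier results of these data known. The lists cover other alpha, delta, PP and epsilon, beta, endothelial, duct, acinar, stellate, macrophage and neural genes, pan-endocrine factors and family relatives. Alternatives were other pseudocounts, filters, scalings, voom, a GC curve, library number as a term and leaving out each library.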

Additional observations from a re-analysis of the deposited data

How the results depend on the processing

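No gene of the 5 was called between genotypes under any of the alternatives run, with limma or voom adjusted p of 0.167 (Irx2, voom with the replicate block and the GC curve removed) to 1.00. Over all genes, voom on the reads called 238 genes with the replicate block (204 higher, 34 lower) and 111 with that block and the GC curve removed (81 and 30), against 0 in the fit reported. Of the 75 other listed genes compared, these fits called 11 higher and 0 lower, and 8 higher and 1 lower. Same-numbered libraries deviated together (r = 0.775 across 12716 genes, which are not independent replicates), but with 2 pairs the labels alone do not pair them. With the replicate block limma called 0 genes (1360 at an unadjusted p under 0.05), and the log2 fold changes were 0.14 (Irx1), -0.16 (Irx2), 0.01 (Hhex) and -0.10 (Etv1).

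The directions of Irx1, Hhex and Etv1 between genotypes turned with the setting, and that of Irx2 only when 1 library was left out. With the GC curve removed they were -0.057 for Irx1, -0.030 for Hhex and 0.0077 for Etv1, and with voom, the block and the GC curve -0.063, -0.019 and 0.016. Irx2 was -0.30 and -0.38 in these settings, the latter with an unadjusted p of 0.00288 and an adjusted p of 0.167. Hhex was also -0.015 in voom and -0.0049 when scaled without the 3 most abundant genes. Leaving out 1 library leaves the numbers unequally represented. For Irx1 it gave -0.56 (without wild type 1) to 0.84 (without wild type 2). For Irx2 it gave -0.62 (without wild type 1) to 0.29 (without wild type 2). Hhex ranged from -0.26 (without transgenic 2) to 0.29 (without transgenic 1), Etv1 from -0.17 to -0.04 and Pou3f4 from -0.19 to 0.08. Pou3f4 was tested only with no filter on low values, at a log2 fold change of -0.051 (limma unadjusted p = 0.678). Irx1 was also -0.47 without transgenic 2, Irx2 0.12 without transgenic 1 and Hhex -0.10 without wild type 1. At 5 FPKM in 2 libraries, Irx2 and Etv1 could not be tested.

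Between library numbers, Irx1 and Irx2 kept their calls in every alternative tested, with log2 differences of 1.36 to 1.73 and 0.79 to 1.04. Leaving out 1 library leaves 1 genotype, with no test, and gave 1.21 to 1.40 for Irx1, 0.58 to 0.90 for Irx2 and 0.22 to 0.55 for Hhex. Hhex was called in voom (0.46), in voom with the GC curve removed (0.49) and with the scaling without the 3 most abundant genes (0.45). Etv1 turned to 0.029 under that scaling, and within single genotypes its difference was -0.13 in wild type and 0.069 in transgenic islets. Over all genes voom called 5545 genes, and 5646 with the GC curve removed, against 3495. The GC and scaling settings of the number difference were chosen after seeing the data. The causes of these changes were not tested. Depth limits Pou3f4, at 11 to 30 reads.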
